A study of Glycine max with 15 samples.

Results

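Phytochrome A genes of soybean (Glycine max) are described here across a brassinosteroid experiment in seedlings. The genes are a set of 4 gene IDs given as the phytochrome A family, of 54175 IDs in the tables: Glyma19g41210, the maturity gene E3, Glyma20g22160, the maturity gene E4, Glyma10g28170 and Glyma03g38620. The rule that gives the 4 is family membership and uses no measured value, although earlier results of these data were known when the family was picked. Each was present and tested in each of the 4 tables. The RefSeq gene table at hand lists the symbol E4 with the synonyms GmphyA2 and PHYA2, and has no entry under the symbol E3 or under any of the 4 IDs.

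Phytochromes are photoreceptors that carry a bilin pigment and switch between a red-absorbing and a far-red-absorbing form, so that a plant can read the colour of light and the length of the day. Phytochrome A is the light-labile type. It accumulates in darkness, acts in far-red and very weak light during seedling establishment, and in many plants its transcript falls in the light. In soybean, functional E3 and E4 delay flowering under long days, and loss of either gives earlier maturity, which makes them a main source of variation in maturity between cultivars. In Arabidopsis, light signalling through phytochromes and brassinosteroid signalling both act on seedling elongation, partly through shared transcription factors.

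Whole seedlings of the cultivar Williams 82, grown for 10 days to the first vegetative stage, gave 15 libraries in 5 groups of 3. The groups were mock-treated control, 5 mM propiconazole (Pcz, a triazole that blocks brassinosteroid synthesis), 5 mM Pcz together with 10 nM brassinolide (BL, the most active brassinosteroid), and 5 mM Pcz with 1 mM BL added for 1 h or for 8 h. Doses are as the labels give them, and millimolar amounts are high for these compounds. No group received Pcz and then a mock addition, so the effect of BL at high dose cannot be told apart from that of the addition or its timing. The authors deposited 4 tables, called Pcz, then Pcz-BL, then Pcz-BL-1h and lastly Pcz-BL-8h, each setting 1 treated group against the control as a single pooled FPKM per group, where FPKM is fragments per unit of transcript length and of sequencing depth. FPKM is scaled for length, so levels can be set side by side between genes. Values per library were not analysed here, so the spread over replicates is not shown, and significance is that of the authors' own test. The last 3 tables carry column headers that name other treatments than their sheet names do. They are called by sheet name throughout, as the sample labels cite them, and which treatment each of the 3 holds depends on that choice. The tissue is a whole seedling, so fewer cells that express a gene and less RNA per cell cannot be told apart. Gene names do not accompany the IDs in the tables, so tissue markers were not checked.

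The loci lie on 4 chromosomes, with coordinates as the authors' tables give them in a genome build not given in the sources used here. E3 spans 47511094 to 47520052 on chromosome 19 and E4 spans 32087411 to 32093306 on chromosome 20. Glyma10g28170 spans 36962520 to 36968813 on chromosome 10 and Glyma03g38620 spans 44925729 to 44930360 on chromosome 3. The longest locus is that of E3 (8959 bp) and the shortest that of Glyma03g38620 (4632 bp). None of the 4 loci overlapped another gene in the tables (0 overlapping loci for each). The genes belong to 1 family, and how the authors' counting treated reads that match more than 1 copy is not given in the sources used here, so reads may have been split between copies.

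In control seedlings E4 was the most abundant of the 4 and supplied most of the summed transcript level. The control columns of the 4 tables stand for the same libraries. Averaged over them, E4 stood at 35.0 FPKM, Glyma10g28170 at 7.08, E3 at 4.63 and Glyma03g38620 at 1.25. E4 made up 73.0% of the sum of 47.97 FPKM, with 14.8% for Glyma10g28170, 9.65% for E3 and 2.61% for Glyma03g38620. Among 43681 genes above 0 in control, E4 lay at the 92.9th percentile of level, Glyma10g28170 at the 67.9th, E3 at the 58.3rd and Glyma03g38620 at the 35.1st. The control columns themselves differed by up to 1.21-fold for E3, 1.20-fold for E4, 1.21-fold for Glyma10g28170 and 1.22-fold for Glyma03g38620, the lowest value being in Pcz-BL-8h for each. Over genes of at least 1 FPKM, the control of that table had a median of 0.838 times the control of the Pcz table. A single scale factor does not account for all the differences. From the control of Pcz to that of Pcz-BL, E4 went up from 36.0 to 36.7 FPKM. Glyma03g38620 went down from 1.32 to 1.30 FPKM. Why the control of Pcz differs gene by gene was not tested, and each difference taken from Pcz rests on it. Fold changes below are therefore within a table, each against its own control.

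**Figure D1:**
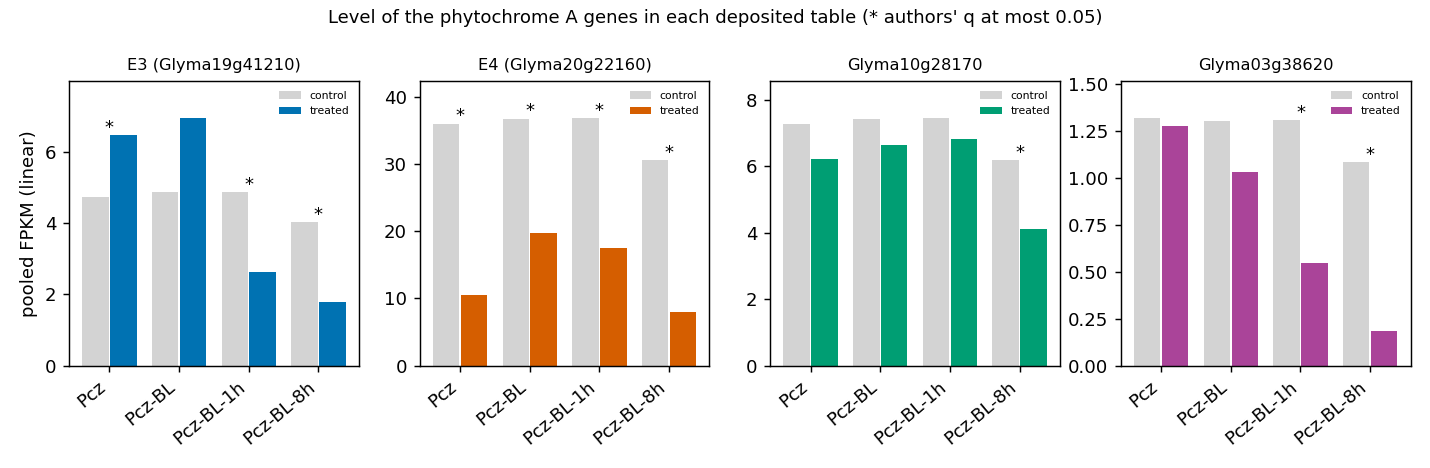
Pooled FPKM (linear axis) of each phytochrome A gene in the 4 deposited tables, with control in grey beside the treated group in colour; an asterisk marks an authors' q of 0.05 or less. E4 was lower than control in each table, from 30.5 to 36.8 FPKM in control to between 7.94 and 19.7 FPKM in the treated groups.

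E4 fell in each of the 4 tables. With Pcz alone, the authors' deposited table had E4 going from 36.0 FPKM in control to 10.5, which is 29.1% of control (log2 fold change -1.78, SE 0.35, q = 0.000188). Here the SE is taken from the authors' test statistic as the size of the fold change over that statistic, and q is the authors' Cuffdiff p-value after Benjamini-Hochberg adjustment over all tested genes. With the inhibitor and low BL together, the authors' deposited table Pcz-BL gave 36.7 FPKM in control and 19.7 in treated seedlings, or 53.8% of control (log2 fold change -0.89, SE 0.43, q = 0.00109). That fall was no longer called when p came from a normal distribution of the authors' statistic. E4 stood at 17.5 FPKM, against 36.8 in control, in the authors' deposited table for Pcz-BL-1h, or 47.7% of control (log2 fold change -1.07, SE 0.31, q = 0.000187). The lowest level was in the authors' deposited table for Pcz-BL-8h, at 7.94 FPKM against 30.5 in control, or 26.0% of control (log2 fold change -1.94, SE 0.41, q = 0.000181). E4 remained the most abundant of the 4 genes in each group despite these falls.

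E3 took another course from E4, higher than control with the inhibitor alone and lower in the tables of high BL. The authors' deposited table Pcz listed 4.73 FPKM in control and 6.46 with Pcz, a rise of 1.37-fold that passed the threshold narrowly (log2 fold change 0.45, SE 0.34, q = 0.0391). That call was lost with such a normal p, also when q was adjusted over all gene IDs, and the 95% interval from the SE runs from -0.21 to 1.11. In the authors' deposited table for Pcz-BL the values were 4.86 and 6.95 FPKM, a log2 fold change of 0.52 with an SE of 0.40 that did not pass (q = 0.0722). E3 fell in the authors' deposited table for Pcz-BL-1h, from 4.88 to 2.63 FPKM, or 53.9% of control (log2 fold change -0.89, SE 0.32, q = 0.000187). It fell also in the authors' deposited table for Pcz-BL-8h, from 4.04 to 1.80 FPKM, or 44.5% of control (log2 fold change -1.17, SE 0.44, q = 0.000181).

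Glyma10g28170, the member next to E4 in control level, passed the threshold in 1 of the 4 tables. Its levels in treated seedlings were 6.23 FPKM with Pcz, 6.64 in the Pcz-BL table and 6.83 for Pcz-BL-1h, against 7.28, 7.43 and 7.45 FPKM in the controls of those tables. None of these passed the threshold in the authors' deposited tables, with log2 fold changes of -0.22, -0.16 and -0.13 and q of 0.329, 0.635 and 0.571. The 95% intervals from the SE reach down to -0.91, -0.94 and -0.72 and up to 0.46, 0.62 and 0.47. A change within those bounds therefore remains possible there. It fell in the authors' deposited table for Pcz-BL-8h, from 6.18 to 4.13 FPKM, or 66.8% of control (log2 fold change -0.58, SE 0.42, q = 0.0378). That last call was lost with a normal p, and when q was adjusted over all gene IDs.

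Glyma03g38620, the least abundant member, fell in the tables of high BL. Its percent of control was the lowest of the 4 genes there, but its interval overlapped that of E4 and the rank rests on low levels. With a pseudocount of 1 FPKM its log2 fold change was -0.58 in Pcz-BL-1h, against -1.03 for E4 and -0.70 for E3, and -0.82 in Pcz-BL-8h, against -1.82 for E4 and -0.85 for E3. It stood close to control in the authors' deposited table Pcz, at 1.28 against 1.32 FPKM (log2 fold change -0.045, SE 0.50, q = 0.907). In the authors' deposited table for Pcz-BL it was at 1.03 against 1.30 FPKM (log2 fold change -0.34, SE 0.59, q = 0.473). The authors' deposited table Pcz-BL-1h had it at 0.546 against 1.31 FPKM, or 41.7% of control (log2 fold change -1.26, SE 0.51, q = 0.000514). The fall was largest in the authors' deposited table for Pcz-BL-8h, at 0.185 against 1.08 FPKM, or 17.04% of control (log2 fold change -2.55, SE 0.76, q = 0.000181). It is the 1 member on any of the authors' short lists, whose entries all differ at least 4-fold, and it is on the list Pcz-BL-8h of 3981 genes.

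**Figure D2:**
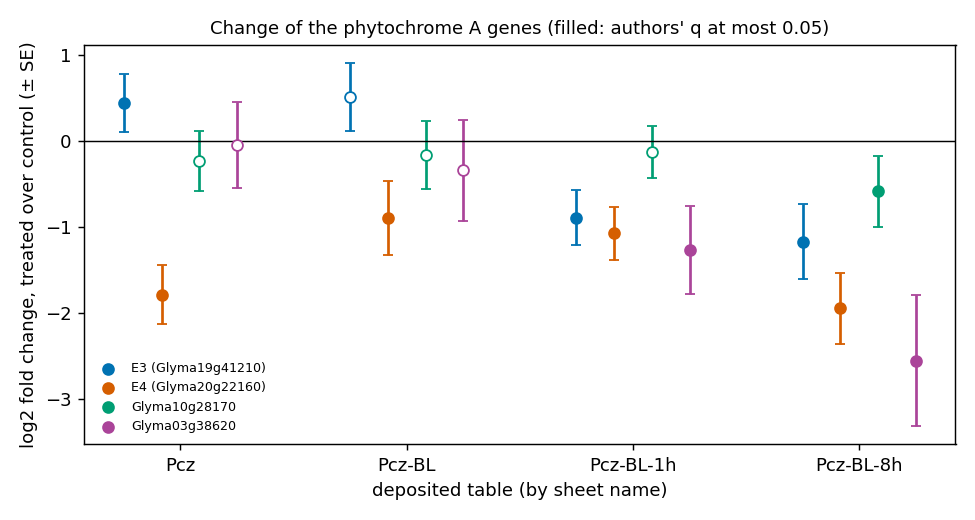
Log2 fold change (treated over control) of the 4 genes in each table, with bars of 1 SE derived from the test statistic; filled points have an authors' q of 0.05 or less. E4 lies below 0 in each table, while E3 lies above 0 in Pcz (0.45) and Pcz-BL (0.52) and below 0 for Pcz-BL-1h (-0.89) as for Pcz-BL-8h (-1.17).

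Counted over the family, 2 of 4 genes were called in Pcz, 1 higher and 1 lower, while 53.4% of all 33690 tested genes were called in that table, 24.9% as higher and 28.4% as lower. In Pcz-BL 1 of 4 was called, as lower, with 36.2% of tested genes called and 22.8% called lower. In Pcz-BL-1h 3 of 4 were lower, against 26.5% of tested genes called lower and 52.1% called in either direction. In Pcz-BL-8h all 4 members were lower, against 30.7% called lower and 56.5% called in either direction. The median log2 fold change of the 4 was -0.13 in Pcz and -0.25 in Pcz-BL, then -0.98 for Pcz-BL-1h and -1.56 for Pcz-BL-8h. Over all tested genes the medians were 0.0081, -0.13, -0.066 and -0.10. Subtracting these medians left the direction of each member in each table as it was. With 4 genes the counts describe these members and are no test of the family. All 4 tables use the same control libraries, so their values for a gene are not independent of each other.

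**Figure D3:**
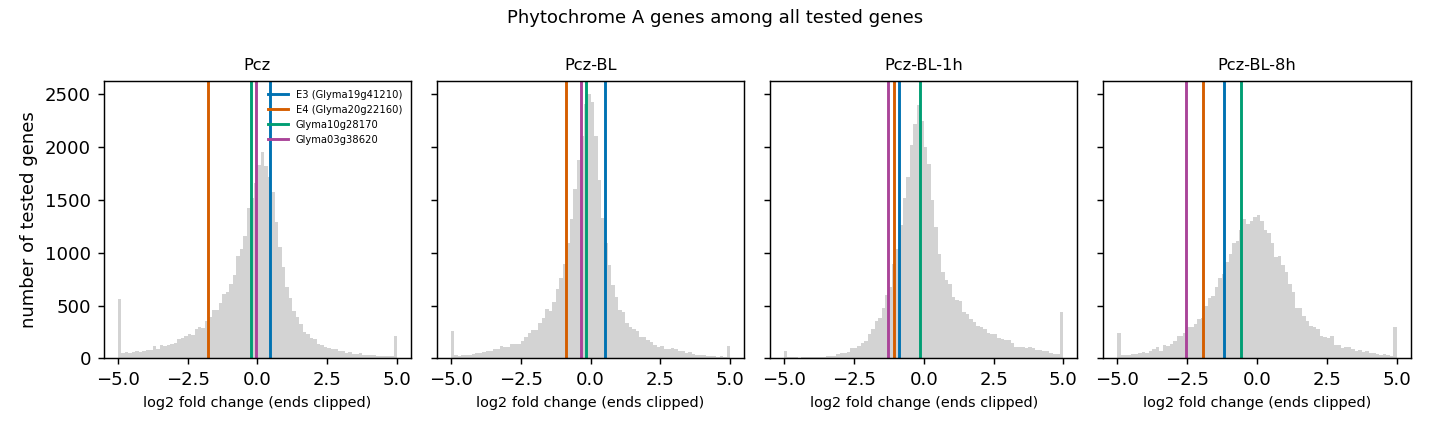
Histograms of the log2 fold changes of all tested genes in each table (values beyond 5 in either direction gathered in the end bins), with a vertical line for each phytochrome A gene. In Pcz-BL-1h as well as Pcz-BL-8h the lines of all 4 genes lie left of the middle, with Glyma03g38620 at the 9.20th and 5.84th percentile.

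Within this wide background E4 sat at the 12.5th percentile of fold change in Pcz, the 20.3rd in Pcz-BL, the 12.3rd in Pcz-BL-1h and the 10.4th in Pcz-BL-8h. In the same order, E3 sat at 69.5, 79.4, 16.1 and 21.6. Glyma10g28170 ranged from the 35.5th to the 48.3rd percentile. A fall of the size seen for E4 was thus shared by more than 10% of tested genes in each table.

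The members were also set against each other within a table, as differences of log2 fold changes with no p-value. In Pcz, E3 minus E4 was 2.23 (SE 0.48, 95% interval 1.28 to 3.18). E4 also lay below Glyma10g28170 by a difference of -1.56 (interval -2.52 to -0.59) and below Glyma03g38620 by one of -1.74 (interval -2.93 to -0.55). In Pcz-BL the difference between E3 and E4 was 1.41 (interval 0.26 to 2.56). In Pcz-BL-1h, then Pcz-BL-8h, it was 0.18 (interval -0.70 to 1.05) and 0.77 (interval -0.41 to 1.96), both of which include 0. In Pcz-BL-8h, Glyma10g28170 minus Glyma03g38620 was 1.97 (interval 0.27 to 3.67) and E4 minus Glyma10g28170 was -1.36 (interval -2.51 to -0.21). Of 6 pairs of members, the interval excluded 0 in 3 for Pcz and 1 for Pcz-BL, then in 1 for Pcz-BL-1h and 2 for Pcz-BL-8h. These intervals are unadjusted, treat the errors of the paired genes as independent, and were added after the values were seen. Other pairs of genes were not counted in the same way, so the counts are no test.

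The make-up of the phytochrome A transcript pool differed between the groups. The sum of the 4 genes was 49.3 FPKM in control and 24.4 in the Pcz table, or 49.5% of control. It was 68.3% of control in Pcz-BL (34.4 FPKM), 54.6% in Pcz-BL-1h (27.6 FPKM) and 33.6% in Pcz-BL-8h (14.1 FPKM). E4 held a smaller share in each treated group than in control. Its share was 73.0% in control, 42.8% with Pcz and 57.4% in the Pcz-BL table, then 63.7% for Pcz-BL-1h and 56.5% for Pcz-BL-8h. E3 held 26.5% with Pcz and 20.2% in the Pcz-BL table, against 9.54% for Pcz-BL-1h and 12.8% for Pcz-BL-8h. The level of E4 over that of E3 was lowest with Pcz, at 1.62-fold against 7.56-fold in control, and stood at 2.84-fold in the Pcz-BL table, 6.68-fold for Pcz-BL-1h and 4.42-fold for Pcz-BL-8h. The level of E3 was 0.653 times that of Glyma10g28170 in control, 1.04 times with Pcz, 1.05 times in the Pcz-BL table, 0.385 times for Pcz-BL-1h and 0.435 times for Pcz-BL-8h. The order of these 2 genes in Pcz and Pcz-BL is not resolved, since pooled values carry no spread. Shares and sums have no error for the same reason.

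**Figure D4:**
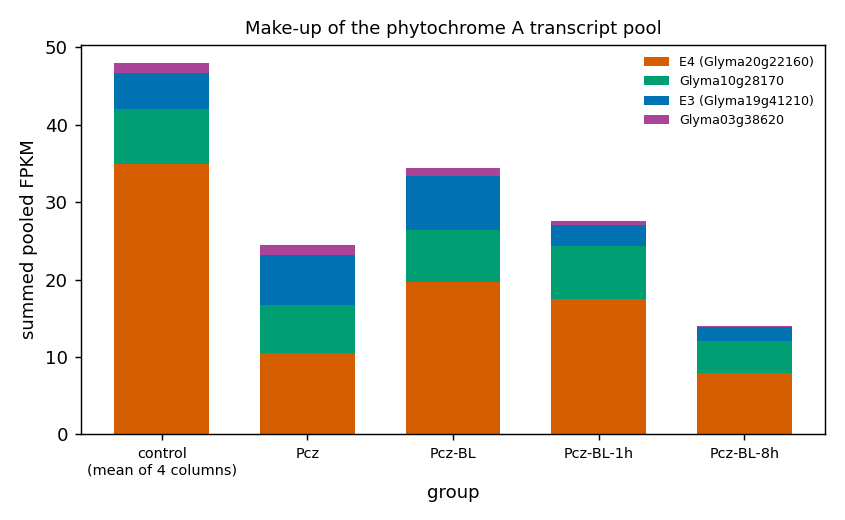
Summed pooled FPKM of the 4 genes per group, stacked by gene, with control as the mean of the 4 control columns. The sum was 47.97 FPKM in the mean control and 14.1 in Pcz-BL-8h, whose own control summed to 41.8 FPKM. The E4 segment was 35.0 FPKM in the mean control and 7.94 in Pcz-BL-8h, whose own control had 30.5 FPKM.

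Treated groups were compared with each other through the difference of their fold changes, by a z test over all genes tested in both tables with Benjamini-Hochberg adjustment. The z test ignores that the control libraries are common to the tables, so their errors are linked. This link makes the standard error of a difference too large, so the test tends to call too few genes. Between Pcz-BL and Pcz, 0 of 4 members passed at q, and 0 of 4 had an unadjusted p under 0.05, where 5.18% of genes passed. E4 differed by 0.89 there (95% interval -0.20 to 1.98, q = 0.530), with treated levels of 19.7 and 10.5 FPKM. E3 differed by 0.066 (interval -0.96 to 1.09, q = 0.988). Those intervals span more than a 2-fold change on the log2 scale, so low BL is not shown to act on the members or to leave them as they were.

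E3 was lower after high BL than with the inhibitor alone, by the sheet names. Pcz-BL-1h minus Pcz was -1.34 for E3 (SE 0.47, z test q = 0.02002), with treated levels of 2.63 and 6.46 FPKM. Pcz-BL-8h minus Pcz was -1.62 for E3 (SE 0.55, z test q = 0.0137), with 1.80 against 6.46 FPKM. Glyma03g38620 differed by -2.51 in Pcz-BL-8h minus Pcz (SE 0.91, z test q = 0.0213), with 0.185 against 1.28 FPKM, and by -1.22 in Pcz-BL-1h minus Pcz (interval -2.62 to 0.19, q = 0.213). In all, 1 of 4 members passed in Pcz-BL-1h minus Pcz, where 25.5% of genes did, and 2 of 4 in Pcz-BL-8h minus Pcz, where 34.3% did.

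E4 showed no called difference between treatments. It differed by 0.72 in Pcz-BL-1h minus Pcz (interval -0.19 to 1.62, q = 0.268) and by -0.16 in Pcz-BL-8h minus Pcz (interval -1.22 to 0.90, q = 0.850). For Pcz-BL-8h minus Pcz-BL-1h, 0 of 4 members passed at q, and 0 of 4 had an unadjusted p under 0.05, where 7.53% of genes passed. The differences were all below 0, at -0.88 for E4 (interval -1.89 to 0.14), -0.28 for E3 (interval -1.34 to 0.79), -0.46 for Glyma10g28170 (interval -1.47 to 0.55) and -1.29 for Glyma03g38620 (interval -3.09 to 0.51).

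**Figure D5:**
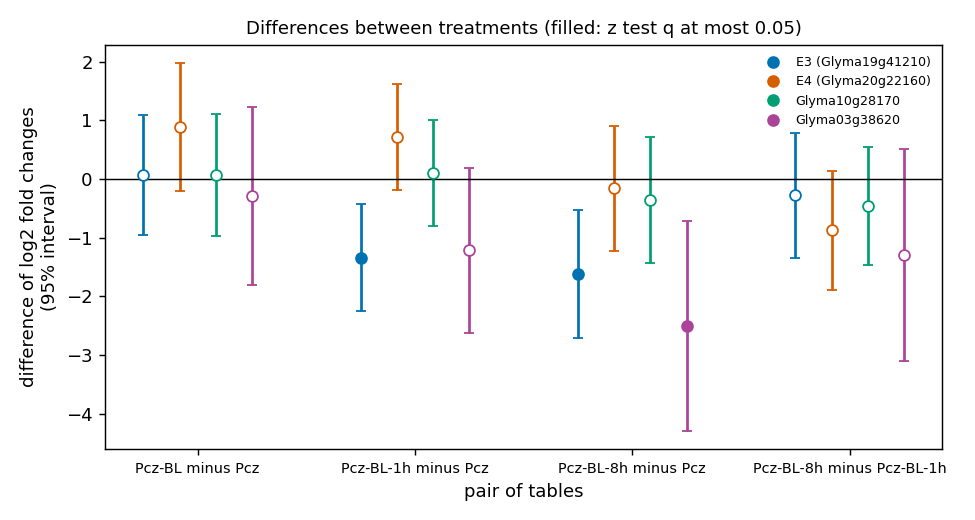
Difference of log2 fold changes between pairs of tables for each gene, with 95% intervals; filled points passed the z test at q of 0.05 or less. The filled points are E3 in Pcz-BL-1h minus Pcz (-1.34) and Pcz-BL-8h minus Pcz (-1.62), and Glyma03g38620 in Pcz-BL-8h minus Pcz (-2.51).

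For each member the gene with the most similar course was found as the smallest root mean square difference over the 4 log2 fold changes, among 29149 other genes tested in all tables with a mean control level of at least 1 FPKM. For E3 it was Glyma06g16670, at 0.0842, with log2 fold changes of 0.39, 0.64, -0.82 and -1.24 in the order in which the tables were introduced. For E4 it was Glyma04g10750, at 0.121, with -1.75, -1.04, -0.94 and -1.80. Glyma14g40180 was nearest to Glyma10g28170 (0.0527) and Glyma02g45150 to Glyma03g38620 (0.0920). The ranks of members in likeness to each other ran from 3194, for Glyma03g38620 in likeness to E4 (difference 0.967), to 20629, for E4 in likeness to Glyma10g28170 (difference 1.19). E4 ranked 19647 in likeness to E3 (difference 1.38), E3 ranked 10358 in likeness to E4, and E3 ranked 3585 in likeness to Glyma03g38620. The closest pair by difference was E3 and Glyma10g28170 (0.679).

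A list of 4 further IDs, taken to be the other phytochromes from general knowledge of soybean and annotated neither in the files nor in the reference table, was read in the same tables. In Pcz 1 of 4 was higher and 0 were lower, in Pcz-BL 0 were higher and 1 lower, while 0 were higher and 3 lower for Pcz-BL-1h, and again for Pcz-BL-8h. Of all tested genes, 24.9% were called higher and 28.4% lower in Pcz. The shares called lower were 22.8%, 26.5% and 30.7% in the other tables in turn, and those called in either direction 36.2%, 52.1% and 56.5%. With 4 IDs the counts describe these IDs and are no test of phytochromes. Each of the 4 IDs was called in 2 tables. The median log2 fold change of those above 0 FPKM was 0.17 in Pcz and -0.068 in Pcz-BL, then -0.53 for Pcz-BL-1h and -0.86 for Pcz-BL-8h. Glyma09g03990 rose in the authors' deposited table Pcz from 7.26 to 11.2 FPKM (log2 fold change 0.63, q = 0.00283) and fell in Pcz-BL-8h from 5.74 to 3.17 FPKM (log2 fold change -0.86, q = 0.00183). Glyma15g14980 fell in the authors' deposited table for Pcz-BL-1h from 6.19 to 4.02 FPKM (q = 0.00139) and in Pcz-BL-8h from 5.11 to 1.997 FPKM (q = 0.000181). Glyma09g11600 fell in the authors' deposited table Pcz-BL from 2.10 to 1.32 FPKM (q = 0.0472) and in Pcz-BL-1h from 2.11 to 1.46 FPKM (q = 0.0319). Glyma15g23400 was at 0 in the authors' deposited tables for Pcz-BL-1h (2.25 FPKM in control) and for Pcz-BL-8h (1.87 FPKM in control), and was called lower in both. An exact 0 can be a failed estimate, so no fold is given for it.

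A second list of 7 IDs, taken in the same way to be photoperiod flowering genes that act with or below E3 and E4, had 6 in the tables. Of 5 tested in Pcz, 1 was higher and 1 lower. Of 6 tested in Pcz-BL, 0 were higher and 3 lower. Of 5 tested, 1 was higher and 2 lower in Pcz-BL-1h, and 0 were higher and 4 lower in Pcz-BL-8h. These counts stand beside the same shares of all tested genes, 28.4% lower in Pcz, 22.8% in Pcz-BL, 26.5% for Pcz-BL-1h and 30.7% for Pcz-BL-8h. In Pcz 24.9% were called higher. Called in either direction were 53.4% in Pcz, 36.2% in Pcz-BL, 52.1% for Pcz-BL-1h and 56.5% for Pcz-BL-8h. With so few IDs the counts describe these IDs and are no test of photoperiod genes. The median log2 fold change of those tested and above 0 FPKM was -0.16 in Pcz and -0.92 in Pcz-BL, then -0.78 for Pcz-BL-1h and -1.66 for Pcz-BL-8h. Glyma16g04830 fell in each of the authors' deposited tables, to 1.33 FPKM in Pcz from 19.1, to 14.7 in Pcz-BL from 25.7, to 0.109 in Pcz-BL-1h from 25.8 and to 0.0810 in Pcz-BL-8h from 21.5 (q of 0.000188, 0.00722, 0.0109 and 0.00629). Its control value of 19.1 FPKM in Pcz stood below the 25.7 FPKM of Pcz-BL although the control libraries are the same. Glyma04g05280 rose in the authors' deposited tables Pcz, from 11.6 to 63.9 FPKM (q = 0.000188), and Pcz-BL-1h, from 12.1 to 19.7 FPKM (q = 0.000818). It fell in the authors' deposited tables Pcz-BL, from 12.0 to 5.93 FPKM (q = 0.00132), and Pcz-BL-8h, from 9.95 to 5.13 FPKM (q = 0.00315). Glyma10g36600 was close to control in the authors' deposited table Pcz (114.5 and 113.7 FPKM, q = 0.977) and fell in Pcz-BL-1h from 125.5 to 73.0 FPKM (q = 0.000354) and in Pcz-BL-8h from 103.5 to 25.5 FPKM (q = 0.000181). Glyma16g26660 fell in the authors' deposited table Pcz-BL from 1.11 to 0.405 FPKM (q = 0.0489) and stood at 0 in Pcz-BL-8h, against 0.923 FPKM in control, where it was called lower.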

How the data were processed

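RNA was sequenced from 15 libraries prepared with a stranded mRNA kit, per the labels' protocols. Cuffdiff tables were deposited by the authors, per the file headers, with FPKM pooled to 1 value per group, the log2 fold change, a test statistic (a score), the p-value and the q-value. The short lists hold log2 values the authors deposited. Version, aligner, build and annotation: not given in the sources used here. Read totals do not survive in pooled FPKM, so the depth is unknown and no counting interval is given.

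Calls required a deposited q of at most 0.05 and the status OK. The sheet name decided which group a table holds. The z test between tables used the standard errors from the test statistic. It was run on simulated fold changes drawn with those standard errors, independently for each table. That run cannot show how the shared control libraries affect the test. The labels do not tell whether libraries came from separate plants, so p-values can at most speak to the spread between libraries, which may be technical. The authors' Cuffdiff p does not follow from the statistic alone. E4 in Pcz (statistic -5.15) and E3 in Pcz-BL-1h (statistic -2.79) share a Cuffdiff p of 5e-05. No member has a lower p, and the q of 0.000181 to 0.000188 come from it. Those q therefore do not rank the changes by strength. The comparison of members within a table was added after their values were seen. Named genes are the 4 members, the most similar gene to each, and called genes of 2 lists. Members and lists were chosen with earlier results of these data known. Of 54175 IDs, 0 matched the RefSeq table (59048 genes, assembly Glycine_max_v4.0). Alternatives were a normal p, q of 0.01, a 2-fold minimum, a filter at 1 FPKM, adjustment over all IDs, assignment by column header, centring, and pseudocounts of 1 and 0.1. Python 3.11.15, pandas 2.3.3 and SciPy 1.17.1 were used.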

Additional observations from a re-analysis of the deposited data

Results flagged for a closer look

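The change of E3 (Glyma19g41210) against control differed between treatments by the z test. On the log2 scale, Pcz-BL-1h minus Pcz was -1.34 (z test q = 0.02002) and Pcz-BL-8h minus Pcz was -1.62 (z test q = 0.0137). The change of Glyma03g38620 differed by -2.51 between Pcz-BL-8h and Pcz (z test q = 0.0213), and by -1.22 when the tables are taken by column header (z test q = 0.213). By header, E3 differed from Pcz by 0.066 in Pcz-BL-1h (z test q = 0.988) and by -1.34 in Pcz-BL-8h (z test q = 0.02002).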

How the results depend on the processing

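No paired analysis was possible because the files give 1 pooled value per group and table, so neither a fit with a replicate block nor fits leaving out a library were run. Centring and both pseudocounts kept the direction of the 16 member fold changes; they leave the authors' q as it is, so they do not bear on the calls. A pseudocount of 1 moved Glyma03g38620 from -1.26 to -0.58 in Pcz-BL-1h and from -2.55 to -0.82 in Pcz-BL-8h. The filter at 1 FPKM changed no member call. With a normal p from the authors' statistic, 1 phytochrome A gene was called in Pcz and 0 in Pcz-BL; in all, 3 of the 10 member calls were lost. Over all genes this p gave 11480 calls in Pcz against 17974, 5523 in Pcz-BL against 12797, 10822 for Pcz-BL-1h against 19229, and 10679 for Pcz-BL-8h against 19563. A q of 0.01, a 2-fold minimum and adjustment over all IDs each left 1 member called in Pcz, and the 2-fold minimum left 0 in Pcz-BL. Of the 4 members called in Pcz-BL-8h, each of these settings left 3, as did the normal p. The 2-fold minimum left 2 of 3 in Pcz-BL-1h. The 2-fold minimum left 11160 genes called in Pcz and 11279 in Pcz-BL-1h. The cause of these losses was not tested.

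Reading the tables by column header moved more. Then 4 members were called for Pcz-BL, with 19563 of all genes (56.5% of those tested), and 1 for Pcz-BL-1h, with 12797 of all genes (36.2%). The log2 fold change of E3 turned to -1.17 (Pcz-BL) or 0.52 (Pcz-BL-1h). By header, Pcz-BL minus Pcz was called in 2 of 4 members, where 34.3% of all genes passed. Pcz-BL-1h minus Pcz was called in 0 of 4, where 5.18% passed, and Pcz-BL-8h minus Pcz in 1 of 4, where 25.5% passed. Pcz-BL-8h minus Pcz-BL-1h by header was called in 1 of 4, and the share over all genes is not given for it. These counts are no test of the members. Pcz-BL minus Pcz turned to -1.62 for E3, -0.16 for E4 and -0.36 for Glyma10g28170. Pcz-BL-1h minus Pcz turned to 0.066 for E3, and Pcz-BL-8h minus Pcz to 0.72 for E4 and 0.10 for Glyma10g28170, while Glyma03g38620 went from -2.51 to -1.22 there and was no longer called (z test q = 0.213). Pcz-BL-8h minus Pcz-BL-1h turned to 0.036 for Glyma10g28170. Ratios of treated FPKM gave the same direction as the differences of fold changes in all 16 cases.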
